A study of Mus musculus with 14 samples.

Results

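The 500 widest stretches of chromatin marked by trimethylated lysine 4 of histone H3 (H3K4me3) in mouse LSK cells are described here. Peaks from all 7 deposited lists were merged wherever they overlapped or touched, on chromosomes 1 to 19 and X, which gave 14657 consensus regions. The 500 longest by span were taken as members, and the other 14157 regions served as the comparison. Members spanned 3068 to 10194 bp with a median of 3634 bp, against a median of 1168 bp for the others. They made up 3.41% of the regions and 10.1% of the bases marked, or 1.96 Mb. Widths chose the members, so every width below is a description and carries no test.

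LSK cells are bone marrow cells that lack lineage markers and carry Sca1 and cKit, a sorted population that holds the hematopoietic stem cells and early progenitors. They came from C57BL/6J male mice, bought at 3 to 4 weeks of age and fed for 16 to 20 weeks with a high-fat diet (HFD, 60% of kcal from fat) or a low-fat diet (LFD, 10% of kcal from fat), with no other treatment and no transgene. CUT&Tag, in which an antibody directs a transposase to the mark, was read in 3 HFD-LSK and 4 LFD-LSK libraries. Each had a matching IgG library, for which no peak list was used here. The labels do not say whether each library came from 1 mouse or from pooled mice, so the p-values measure only the spread between libraries. The study describes an added cohort of LSK libraries, and the labels do not say which cohort each library came from. No value within a cohort could be computed, and the permutation tests treat all 7 libraries as exchangeable.

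H3K4me3 is written by the SET1 and KMT2 methyltransferase complexes and removed by KDM5 demethylases, and it sits at the starts of genes that are active or ready to be transcribed. At most active genes the mark covers a short stretch after the start. Stretches of unusual length have been described in many cell types at genes that define the identity of the cell, such as those for its lineage transcription factors.

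Promoters are shown for 5 members, chosen because they span the range of the results: Tnrc18 was the widest, Hoxa9 lay in a run of neighbouring members, Bcl11a and Gata2 encode stem cell transcription factors, and Kit encodes a receptor used for the sort. Each sequence covers 250 bases before to 50 bases after the gene start on the coding strand (RefSeq, GRCm38.p6), 5′ to 3′, with CpG dinucleotides in capitals.
Tnrc18, chr5:142817613-142817912, minus strand: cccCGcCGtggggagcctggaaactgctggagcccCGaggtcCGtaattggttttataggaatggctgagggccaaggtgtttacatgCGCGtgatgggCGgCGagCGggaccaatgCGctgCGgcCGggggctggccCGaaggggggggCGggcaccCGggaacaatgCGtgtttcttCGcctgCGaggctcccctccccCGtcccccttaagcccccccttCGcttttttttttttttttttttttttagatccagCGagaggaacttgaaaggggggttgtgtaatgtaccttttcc
Bcl11a, chr11:24080445-24080744, plus strand: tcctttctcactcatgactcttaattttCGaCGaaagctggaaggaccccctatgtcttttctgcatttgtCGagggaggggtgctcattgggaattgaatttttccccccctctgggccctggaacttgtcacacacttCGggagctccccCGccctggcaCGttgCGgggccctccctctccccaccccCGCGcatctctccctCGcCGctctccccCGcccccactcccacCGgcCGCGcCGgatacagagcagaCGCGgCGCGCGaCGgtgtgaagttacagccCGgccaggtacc
Hoxa9, chr6:52227321-52227620, minus strand: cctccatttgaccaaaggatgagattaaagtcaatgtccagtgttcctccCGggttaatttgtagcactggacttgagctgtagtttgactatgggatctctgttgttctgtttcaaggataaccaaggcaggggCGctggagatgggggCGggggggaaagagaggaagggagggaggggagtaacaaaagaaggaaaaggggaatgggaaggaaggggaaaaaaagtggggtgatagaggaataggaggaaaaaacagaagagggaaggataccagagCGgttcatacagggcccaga
Kit, chr5:75574741-75575040, plus strand: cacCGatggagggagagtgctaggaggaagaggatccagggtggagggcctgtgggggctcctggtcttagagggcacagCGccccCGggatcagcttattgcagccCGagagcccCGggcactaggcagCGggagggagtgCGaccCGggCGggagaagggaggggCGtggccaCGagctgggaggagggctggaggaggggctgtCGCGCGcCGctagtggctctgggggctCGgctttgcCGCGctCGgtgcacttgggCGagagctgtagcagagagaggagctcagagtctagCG
Gata2, chr6:88198414-88198713, plus strand: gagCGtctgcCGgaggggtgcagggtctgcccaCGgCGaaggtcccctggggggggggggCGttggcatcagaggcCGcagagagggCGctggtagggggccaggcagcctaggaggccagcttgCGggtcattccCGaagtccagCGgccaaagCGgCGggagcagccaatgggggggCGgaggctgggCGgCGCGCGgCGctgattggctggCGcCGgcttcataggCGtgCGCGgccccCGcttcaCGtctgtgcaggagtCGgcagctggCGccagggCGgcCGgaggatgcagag

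These promoters held 21 CpGs at Tnrc18, 23 at Bcl11a, 21 at Kit and 29 at Gata2. The Hoxa9 window held 4. The annotated Hoxa9 start was covered by a peak only in HFD-LSK replicate 2. In the region that held it, the peaks of the other 6 lists lay downstream of the start. A second member led by Hoxa9 lay 347 bp from that region, on the upstream side.

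A promoter sequence was at hand for 370 genes that led a member and for 8609 that led another region. Member promoters held a median of 26 CpGs per 300 bases (25th to 75th percentile 18.25 to 37), and the others held 22 (15 to 30). Their median GC content was 67% against 62.3%, and the ratio of observed to expected CpG was 0.827 against 0.787. Few promoters of either kind had fewer than 5 CpGs, 2.70% of member promoters and 3.15% of the others.

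Short motifs were counted on both strands of the same windows. The ETS-type letters CCGGAAG occurred in 35 member promoters (9.46%) and in 18.9% of the other promoters. The CRE palindrome TGACGTCA occurred in 1.35% against 3.31%. GGGCGG, the GC box, was found in 77.0% against 70.0%, CCAAT in 34.3% against 37.8%, and TATAAA, the TATA box, in 6.22% against 5.95%. These are counts of letters and not of bound sites.

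The peak lists held 6920 to 13093 peaks each, and the number of fragments behind a call differed between libraries. From the fold and p of each peak the number of fragments at its summit could be recovered as a whole number for 99.9% of peaks in LFD-LSK replicate 1 and for 100% in each of the other lists. The fewest fragments that gave a call were 16, 8 and 4 in HFD-LSK replicates 1 to 3 and 21, 10, 8 and 9 in LFD-LSK replicates 1 to 4. A region without a call in a list is therefore not shown to lack the mark.

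The population was checked against genes that define it. Of 10 LSK genes, 9 had a region within 1 kb of a start, and 7 of them were members (Kit, Meis1, Hlf, Mecom, Gata2, Runx1 and Erg). Ly6a, which encodes Sca1, had no region in any list. None of 8 T cell genes had a region. A region was called at 1 of 6 B cell genes, 2 of 7 erythroid genes, 2 of 9 mature myeloid genes and 4 of 9 stromal and endothelial genes. No member lay at any of these other-cell genes. None of them was called in all 7 lists, and only 5 of the 10 LSK genes were. The erythroid gene Klf1 and the mature myeloid gene Cd14 were called in 6 lists, as were Flt3 and Erg, and Hlf was called in 5.

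HFD-LSK replicate 2, the list with the most and the longest peaks, decided much of the choice. Its peaks alone covered at least 90% of the span of 447 members and set both ends of 270. Of its own 500 widest regions, 464 were members, whereas the other lists placed 140 to 328 of theirs. When it was left out and the regions were merged and chosen again, 345 of the new 500 overlapped a member reported here. The bases covered by at least 4 lists, a width that no single list can set, had a median of 2134 bp in members and 526 bp in other regions. Only 5 members had no base shared by 4 lists, against 5117 of the others. A region called in fewer than 4 lists has no such base by definition. Calls in 1, 2 and 3 lists numbered 0, 2 and 2 among members and 2791, 1294 and 962 among others. In regions called in all 7 lists, bases covered by all 7 had medians of 554 bp for members and 442 bp for others. The gap in the width shared by 4 lists thus partly reflects the number of calls.

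Members nonetheless had more covered bases than other regions at the median of each list. Peaks covered a median of 2167, 3509.5 and 2100.5 bp of each called member in HFD-LSK replicates 1 to 3, and 1498, 2595.5, 2175 and 888 bp in LFD-LSK replicates 1 to 4. The other regions had medians of 860, 1174 and 781 bp in the HFD-LSK lists and 735, 963, 815 and 544 bp in the LFD-LSK lists. Members had the higher median in all 7, by the least in LFD-LSK replicate 4. Covered bases are summed over peaks, and a longer span has room for more of them. The longest single peak of called members had a median of 1922, 3472 and 1585 bp in the HFD-LSK lists. In the LFD-LSK lists it was 1300, 2253.5, 1744 and 705 bp.

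**Figure D1:**
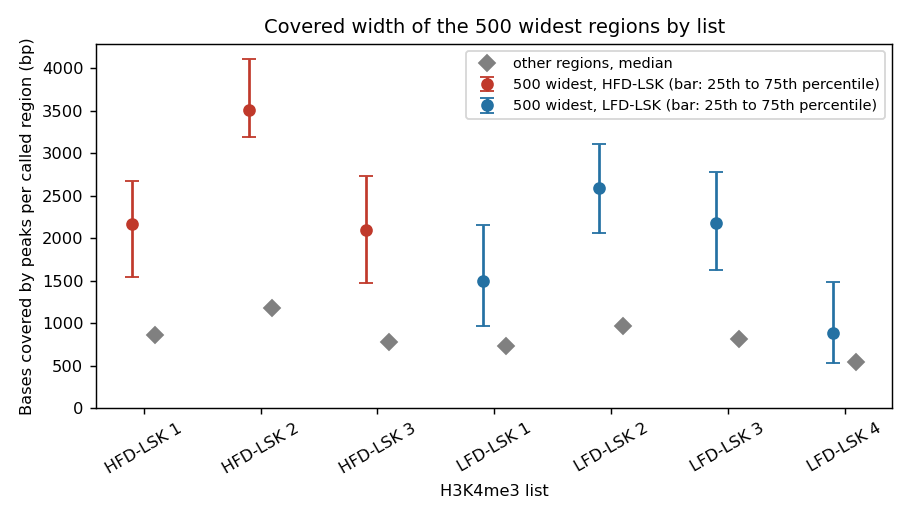
Bases covered by peaks per called region (y axis, bp) in each of the 7 lists (x axis). Circles give the median of the 500 widest regions with bars from the 25th to the 75th percentile, in red for HFD-LSK and blue for LFD-LSK, and grey diamonds give the median of the other regions. The circles range from 888 bp in LFD-LSK replicate 4 to 3509.5 bp in HFD-LSK replicate 2 and lie above the diamonds in all 7 lists.

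To see whether a list's own peaks produced this, members were chosen again from the 6 other lists and measured by the full length of the peaks that overlapped them in the list left out. The median for the members so chosen was 2158, 3232.5 and 2083.5 bp in the HFD-LSK lists and 1498, 2563.5, 2163.5 and 888 bp in the LFD-LSK lists. The other regions had 861, 1282 and 837 bp and 735, 972, 829 and 545 bp. The members so chosen thus had more peak bases in a list that had no part in their choice. Without LFD-LSK replicate 1 or replicate 4, all 500 overlapped the members as reported, so the member medians for these lists repeat the earlier ones. The margin was again smallest in LFD-LSK replicate 4. All peaks that overlapped a region were summed, and a longer region can meet more peaks, so this is not independent of the span. Single peaks of the list left out were not compared.

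Members were called more widely than other regions. All 7 lists called 357 members (71.4%), and 4038 of the other regions (28.5%). No member rested on 1 list, whereas 19.7% of the other regions did. By list, 491, 500 and 496 members were called in HFD-LSK replicates 1 to 3, and 452, 496, 494 and 383 in LFD-LSK replicates 1 to 4. A long region has more bases in which a peak can fall, so these counts are not independent of the width.

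**Figure D2:**
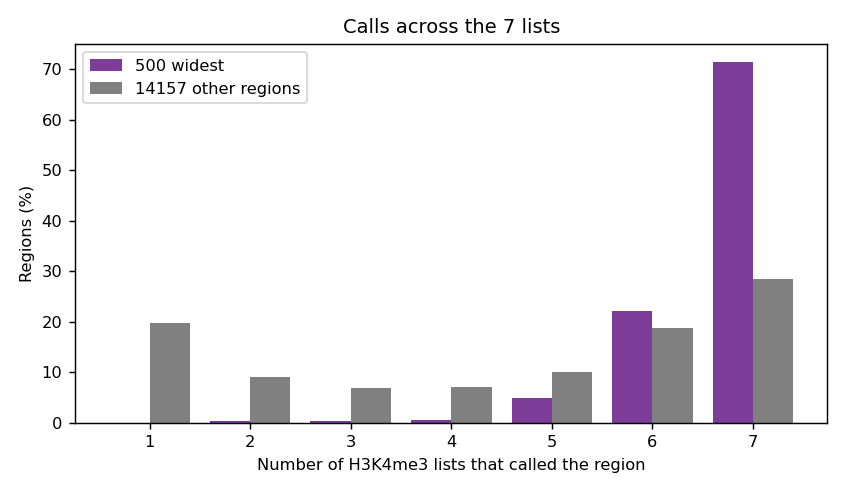
Share of regions (y axis, %) by the number of H3K4me3 lists that called them (x axis), for the 500 widest regions in purple and the 14157 other regions in grey. The purple bars stand mainly at 7 lists (71.4%), while 19.7% of the grey regions were called by 1 list.

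Width and strength were related but not the same quantity. Within each list the highest fold enrichment in a region was turned into a percentile, since the lists were scaled separately and their folds cannot be compared. The median percentile of called members was 69.5, 78.0 and 66.9 in the HFD-LSK lists and 65.1, 68.5, 72.5 and 61.6 in the LFD-LSK lists, while that of the other regions lay between 48.6 and 49.4. Between 15.4% and 29.4% of called members ranked above the 90th percentile of their list, and between 15% and 37.1% ranked below the 50th. Across all regions of a list, the Spearman rho between covered width and fold was 0.464 to 0.688 over 6509 to 12997 regions. Among members it was 0.256 to 0.400 in 6 lists and -0.0366 over 500 members in HFD-LSK replicate 2. The members were chosen by width, largely through that replicate, which narrows the range of widths among them. Nothing is read from the lower rho. A region with more bases offers more places for a high summit, and both measures of a point come from the same library.

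The wide regions sat at gene starts. A coding gene started within 1 kb of 449 members (89.8%), against 73.9% of the other regions. Of the rest, 18 held only a noncoding start, 32 were internal to a gene, and 1 overlapped no gene. More than 1 coding gene started at 67 members (13.4%), against 7.54% of the others. In all, 514 coding genes started at a member. The X chromosome held 4 members (0.8%) and 3.22% of the other regions. A longer region is more likely to reach a start by its length alone, which was not tested.

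Among the 382 members with 1 coding start, the region ran a median of 2636.5 bp downstream of the start and 1161 bp upstream, against 870.5 and 382 bp in the other single-start regions. The downstream arm was the longer in 80.9% of members and 84.1% of the others. Members were thus extended on both sides, with a median of 68.6% of their span in the downstream arm against 70.3%. The genes themselves were somewhat longer, with a median length of 34841 bp against 26664 bp. Even so, 11 of these genes lay wholly inside their region. They included Hoxa9, Nkx2-3, Txnip, Junb, Lyl1, Zfp36, Pcbp1 and Ier2.

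The widest member lay at Tnrc18 (chr5:142813173-142823366, 10194 bp), which encodes a protein with a BAH domain that reads modified histones. Peaks covered 5946, 9853 and 5359 bp of it in HFD-LSK replicates 1 to 3 and 4412, 8294, 7162 and 1405 bp in LFD-LSK replicates 1 to 4. The covered widths of the 2 diets overlapped. The related gene Bahcc1 led the next member (chr11:120229109-120238101, 8993 bp), which had 5579, 8993 and 4241 bp in HFD-LSK and 0, 6618, 6062 and 424 bp in LFD-LSK. The whole of that span was a single peak in HFD-LSK replicate 2.

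The third member held the start of Etv6, an ETS family repressor needed by adult stem cells, and of the predicted gene Gm46977 (chr6:134034043-134042476, 8434 bp). It had 2778, 7728 and 2969 bp in HFD-LSK and 1768, 5158, 4420 and 251 bp in LFD-LSK. Hoxa9, a homeobox factor of stem cells and leukemia, had the next place (chr6:52219957-52227761, 7805 bp), with 2167, 7805 and 3409 bp in HFD-LSK and 517, 4560, 2867 and 1709 bp in LFD-LSK. Nkx2-3, another homeobox gene, followed it (chr19:43609563-43617239, 7677 bp) and had no peak in LFD-LSK replicates 1 and 4.

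The other members among the 15 longest lay at Brd2 with H2-DMa (7301 bp), Ccnd2 (7119 bp), Txnip (7108 bp), Bcl11a (6957 bp), Pcdh7 (6721 bp), Ppp1r9b (6681 bp), Kit (6524 bp), Fli1 (6465 bp), Zbtb1 with Zbtb25 (6296 bp) and Ppp6r1 (6294 bp). Brd2 encodes a reader of acetylated histones, Ccnd2 a D-type cyclin and Txnip an inhibitor of thioredoxin. Bcl11a encodes a zinc finger repressor of fetal globin and a lymphoid and stem cell factor. HFD-LSK replicate 2 had the most covered bases in each of these 15.

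Kit, the receptor for stem cell factor, shows how unequal the lists were (chr5:75574172-75580695). Peaks covered 1997, 6524 and 2315 bp in HFD-LSK replicates 1 to 3 and 1742, 2547, 2686 and 897 bp in LFD-LSK replicates 1 to 4. One unbroken peak spanned the whole region in HFD-LSK replicate 2, whereas the other lists had a peak over the start and, in 3 of them, further peaks beyond 2 kb inside the gene. Foxo3, a forkhead factor that holds stem cells in quiescence, was the more even (chr10:42273531-42278779, 5249 bp). It had 4178, 5249 and 3571 bp in HFD-LSK and 3827, 3993, 4464 and 3948 bp in LFD-LSK, which is at least 3571 bp in every list.

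**Figure D3:**
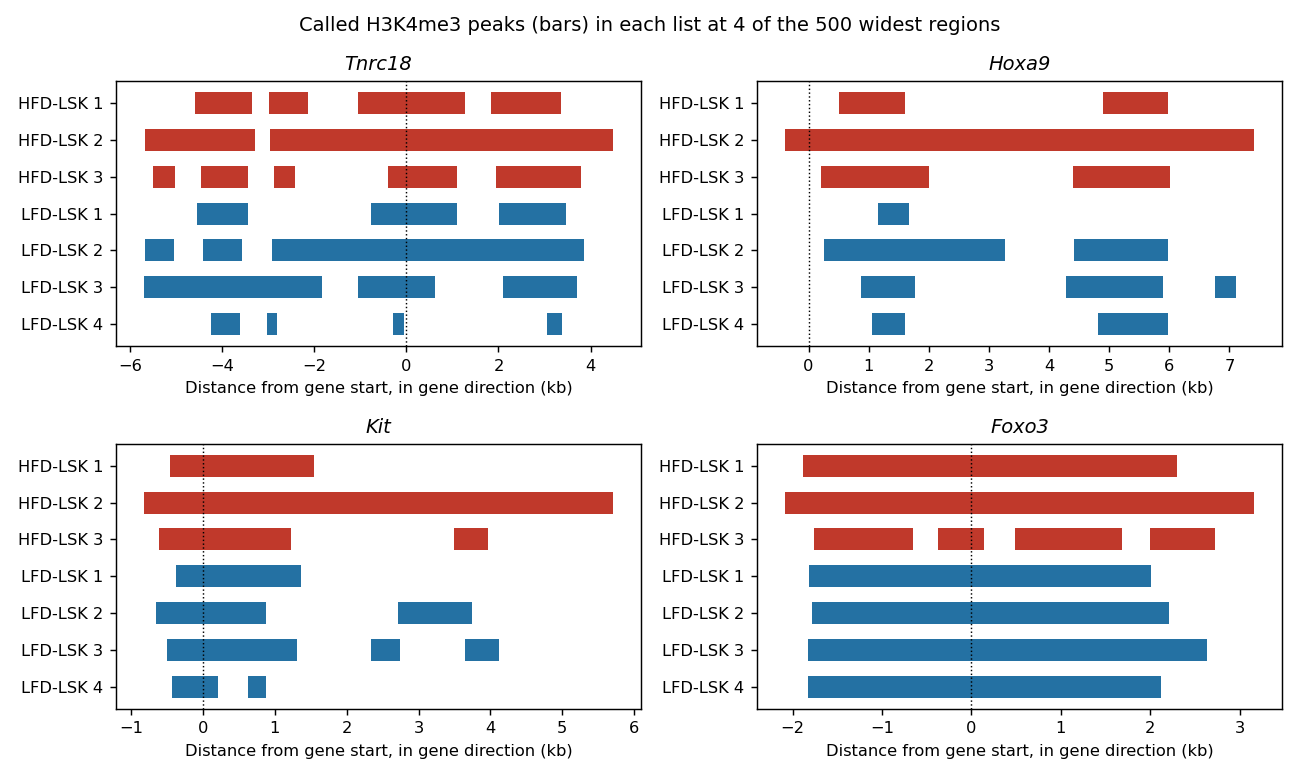
Called peaks (bars) in each of the 7 lists (rows; HFD-LSK red, LFD-LSK blue) at Tnrc18, Hoxa9, Kit and Foxo3, by distance from the gene start in the direction of the gene (x axis, kb; dotted line at the start). HFD-LSK replicate 2 has 1 unbroken peak at Hoxa9, Kit and Foxo3, and in 6 of the 7 lists Foxo3 is covered by 1 peak.

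Lists of genes were compared with all coding genes. Of the 11562 coding genes with a region at their start, 514 (4.45%) had a member there. The lists were put together with earlier results of these data known, so their shares are descriptions and were not tested.

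The heptad, a group of 7 transcription factors that act together on blood stem cell genes, was the most complete. All 6 of its genes with a region at a start had a member there: Fli1 (6465 bp), Gata2 (5433 bp), Runx1 (5022 bp), Lyl1 (4803 bp), Tal1 (4309 bp) and Erg (4154 bp). The remaining factor, Lmo2, had no region at its annotated start, but a member of 4716 bp lay inside the gene (chr2:103968554-103973269).

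The heptad regions were not equally supported. Gata2 (chr6:88196060-88201492) had 2724, 5433 and 2767 bp covered in HFD-LSK and 1771, 3037, 3020 and 1581 bp in LFD-LSK, and was called in every list. Runx1 (chr16:92821587-92826608) had 1325, 4522 and 990 bp in HFD-LSK, and 2621 and 1190 bp in LFD-LSK replicates 2 and 3, with no call in LFD-LSK replicates 1 and 4. The member inside Lmo2 was missed by the same pair of lists. Erg (chr16:95455864-95460017) had 1410, 3468 and 1743 bp in HFD-LSK and 300, 3564 and 1102 bp in LFD-LSK replicates 1 to 3, with no call in replicate 4. The missing calls fell in the 2 lists with the fewest peaks.

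Regulators of self-renewal followed, with members at 16 of 23 genes with a region (69.6%). Beside Etv6, Hoxa9, Nkx2-3 and Bcl11a, the longest were Hlf (5252 bp), Foxo3 (5249 bp), Mecom (5145 bp) and Prdm16 (4682 bp). Hlf and Mecom mark the most immature stem cells, and Prdm16 encodes a PR domain factor related to Mecom. Mecom (chr3:30505556-30510700) had 2800, 5145 and 1429 bp in HFD-LSK and 1681, 3463, 3118 and 372 bp in LFD-LSK. Its fold enrichment had a median percentile of 95.02 over the lists, and that of Foxo3 was 94.34, whereas Runx1 stood at 40.43.

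Among genes for surface proteins of LSK cells, 3 of 13 (23.1%) had a wide region. They were Kit, Cd47 (3907 bp), which encodes a signal against engulfment by macrophages, and Cxcr4 (3124 bp), the receptor that keeps stem cells in the marrow. Cd34 (2929 bp) and Flt3 (2451 bp) had regions below the width limit.

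Lineage factors were also counted, in lists too small for an order among them to be read. Lymphoid genes had 3 of 10: Foxp1 (3874 bp), Notch1 (3354 bp) and Satb1 (3121 bp). Myeloid genes had 2 of 11, Klf4 (3770 bp) and Cebpa (3165 bp). Megakaryocyte and erythroid genes had 4 of 11, with Cbfa2t3 (4597 bp) and Zfpm1 (4585 bp), both cofactors of erythroid transcription factors, the longest.

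Immediate early genes, which cells switch on within minutes of a stimulus, had members at 11 of 29 (37.9%). Zfp36l1 (5542 bp), Zfp36l2 (4857 bp) and Zfp36 (4485 bp) encode 3 related proteins that destabilise messenger RNAs with AU-rich elements. Junb (5071 bp), Fosl2 (4824 bp) and Jun (4531 bp) encode subunits of AP-1, Dusp2 (4582 bp) a phosphatase of MAP kinases, and Myc (4282 bp) a growth regulator.

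Chromatin regulators had 11 of 36 (30.6%), and 4 of the 11 encode methyltransferases or related members of the KMT2 family: Kmt2d (4349 bp), Kmt2a (4284 bp), Kmt2e (3798 bp) and Kmt2c (3608 bp). Splicing factors had 4 of 31 (12.9%), led by Hnrnpl (3971 bp) and Hnrnpa2b1 (3425 bp). Inflammatory signalling genes had 3 of 33 (9.09%), Irf2 (3928 bp), Socs2 (3181 bp) and Myd88 (3145 bp).

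Genes for the proteasome, cytosolic ribosomes and replication licensing were near or below the share of all coding genes (4.45%), whereas the splicing factors lay above it. Proteasome subunits had 1 of 29, Psmd13 (3646 bp). Cytosolic ribosomal proteins had 1 of 75, Rpl7 (3335 bp), and none of 21 replication licensing genes led a member. The median width of the regions at these genes was 1239 bp for the proteasome, 1773 bp for ribosomal proteins and 1589 bp for replication licensing, against 1408 bp for all coding genes and 4912.5 bp for the heptad.

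**Figure D4:**
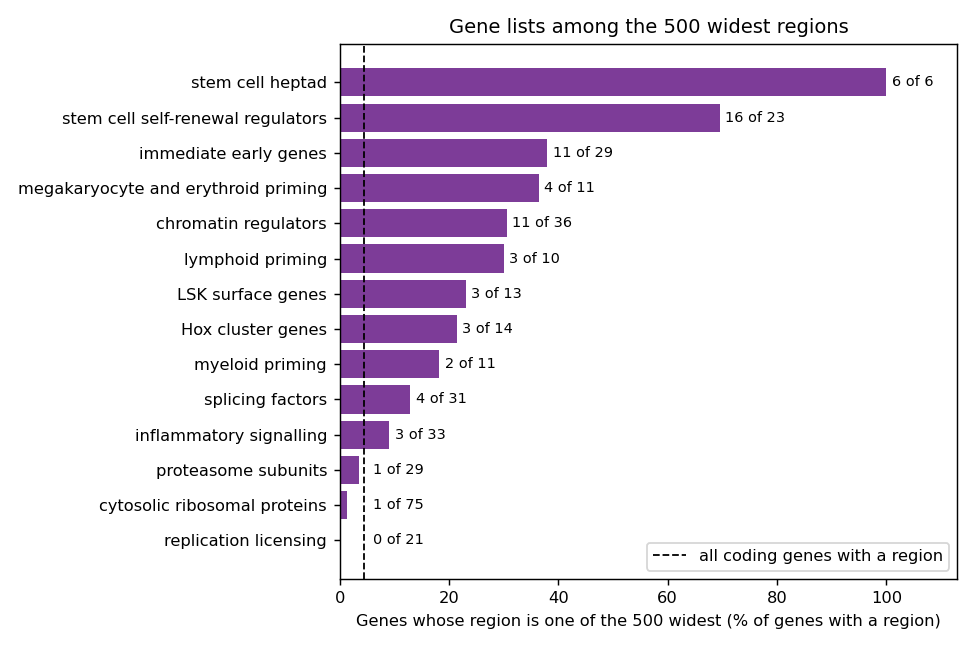
Share of the genes of each list whose region is one of the 500 widest (x axis, % of genes with a region at a start; labels give the counts). The dashed line marks all coding genes (4.45%). The heptad (6 of 6) and the self-renewal regulators (16 of 23) lie farthest to the right of it, and the ribosomal (1 of 75), proteasome (1 of 29) and replication (0 of 21) genes to its left.

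Members also lay side by side. There were 25 neighbouring pairs within 50 kb of each other, made up of 45 members. How often other regions lie as close was not computed. Some pairs were split only by a short gap, such as 145 bp at Cmtm7 and 239 and 662 bp at Adgrg1. At the HoxA cluster 4 members followed each other from Hoxa7 (3555 bp) through 2 regions led by Hoxa9 to Hoxa10 (3463 bp), with gaps of 503, 347 and 381 bp. Of the 14 Hox genes with a region at a start, these 3 genes were the only members. A second region of 3241 bp lay 3004 bp from the Hlf member, and the regions at Malat1 and Neat1, a pair of abundant noncoding nuclear RNAs, lay 37834 bp apart.

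The longest member with no coding or noncoding start within 3 kb lay inside Runx2 (chr17:44733139-44738718, 5580 bp), which encodes a Runt factor best known from bone, and was called in all 7 lists. Next came a region inside Bcor (chrX:12076678-12081970, 5293 bp), a Polycomb-linked corepressor gene, called in 6, and one inside Cmtm7 (chr9:114773802-114778987, 5186 bp), called in 7. These distances are to the RefSeq promoter entries used here, or to the outer end of a gene that had none. A start used in LSK cells but not among them would not have been counted.

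A few members were supported by few lists. The regions at Unc45bos (3738 bp) and inside Hlf (3241 bp) were called only in HFD-LSK replicates 2 and 3. The region inside Ppargc1a (chr5:52112489-52116448, 3960 bp) was called in 3 lists, with 3960 bp in HFD-LSK replicate 2, 1216 bp in HFD-LSK replicate 3 and 1929 bp in LFD-LSK replicate 3. In each of these 3 members most of the span came from HFD-LSK replicate 2.

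The limit of 500 fell where widths changed slowly. The last 3 members lay inside Lrmp (3070 bp) and at Itpk1 (3070 bp) and Sash3 (3068 bp), and the first 3 regions left out lay at Irs2 (3064 bp), Fryl (3062 bp) and Tpra1 (3061 bp). The order on either side of the limit thus rests on a few bases.

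Diet was compared on ranks, to ask whether H3K4me3 at the wide regions differed between HFD-LSK and LFD-LSK. Regions called in all 7 lists were ranked by their highest fold within each list, rank 1 being the highest of 4395, and 357 members entered. The members were nearer the top in every HFD-LSK list than in any LFD-LSK list at 11 (3.08%), where 2.66% of all ranked regions were. They were farther from the top at 9 (2.52%), where 2.39% of all ranked regions were. Both shares were near the background. The median rank difference, HFD-LSK minus LFD-LSK, was -122 for members and -29.0 for all ranked regions, and 58.0% of members had the nearer mean rank in HFD-LSK against 51.7% of all ranked regions. The members were chosen largely through HFD-LSK replicate 2, the list in which their fold percentile was also highest, so nothing about diet is read from this shift.

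No member passed the test after adjustment. By an exact two-sided permutation test over the 35 ways to split the 7 libraries, whose smallest possible p is 0.0286, 7 members (1.96%) and 115 of all ranked regions (2.62%) had an unadjusted p below 0.05. The smallest Benjamini-Hochberg adjusted p of the exact permutation test was 0.949, so 0 regions had one below 0.05. With 35 splits and 4395 regions the design could hardly have given a lower value, and a miss does not show that the diets were alike. No other tool was run on these ranks.

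Of the members nearer the top in HFD-LSK, the 3 largest rank differences were at Cd93, B2m and Zfp827. Cd93 (chr2:148439861-148443884), which encodes a surface receptor of early progenitors and endothelium, had ranks 795, 903.5 and 1146 in HFD-LSK and 1893.5, 4315, 3343 and 1702.5 in LFD-LSK, a mean difference of -1865. Its folds were 13.6, 27.8 and 11.3 in HFD-LSK and 6.14, 4.86, 7.03 and 6.29 in LFD-LSK. The ranks of the diets did not overlap, and the exact permutation p was 0.0857 before adjustment.

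B2m (chr2:122146730-122151423), the light chain of class I major histocompatibility molecules, had ranks 1395, 903.5 and 1146 in HFD-LSK and 1853.5, 2001, 3872.5 and 4144 in LFD-LSK (mean difference -1820, exact permutation p = 0.0857). Zfp827 (chr8:79028002-79031105), a zinc finger gene, had ranks 1042, 884.5 and 1588 in HFD-LSK and 1950.5, 3732.5, 2794 and 2082 in LFD-LSK (mean difference -1468, exact permutation p = 0.0571). At both, the nearest ranks of the diets were closer to each other than the ranks within LFD-LSK were spread.

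Of the members farther from the top in HFD-LSK, Ewsr1 had the largest difference (chr11:5097047-5100556, 3510 bp). It encodes an RNA-binding protein of the FET family. Its ranks were 3880, 91 and 2944.5 in HFD-LSK and 3.5, 19, 63 and 16.5 in LFD-LSK, a mean difference of 2280. It was among the strongest regions of every LFD-LSK list and of HFD-LSK replicate 2, and fell low in the other HFD-LSK lists. The exact permutation p was 0.0286 before adjustment.

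Abhd17b (chr19:21652267-21655377), which encodes an enzyme that removes palmitate from proteins, had ranks 2359, 1243 and 2840.5 in HFD-LSK and 278, 227, 29 and 486 in LFD-LSK, a mean difference of 1892.5. Adcy9 (chr16:4417557-4420855), an adenylyl cyclase gene, had ranks 3429, 3020 and 3954.5 in HFD-LSK and 1557, 2159.5, 2404 and 792 in LFD-LSK, a mean difference of 1740. The exact permutation p was 0.0286 for each before adjustment. In neither did the diets overlap.

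Hoxa9 was the member of the longest 15 whose ranks did not overlap. They were 997.5, 252.5 and 971 in HFD-LSK and 2740, 2001, 1376.5 and 1169 in LFD-LSK, with a mean difference of -1081 and an exact permutation p of 0.0571 before adjustment. With HFD-LSK replicate 2 left out and the regions merged anew, which changes the regions as well as the libraries, the difference was 157.6, although in the regions as reported the ranks of the other HFD-LSK lists also lay nearer the top than those of every LFD-LSK list. When the fold of the longest peak replaced the highest fold the difference was 43.0.

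**Figure D5:**
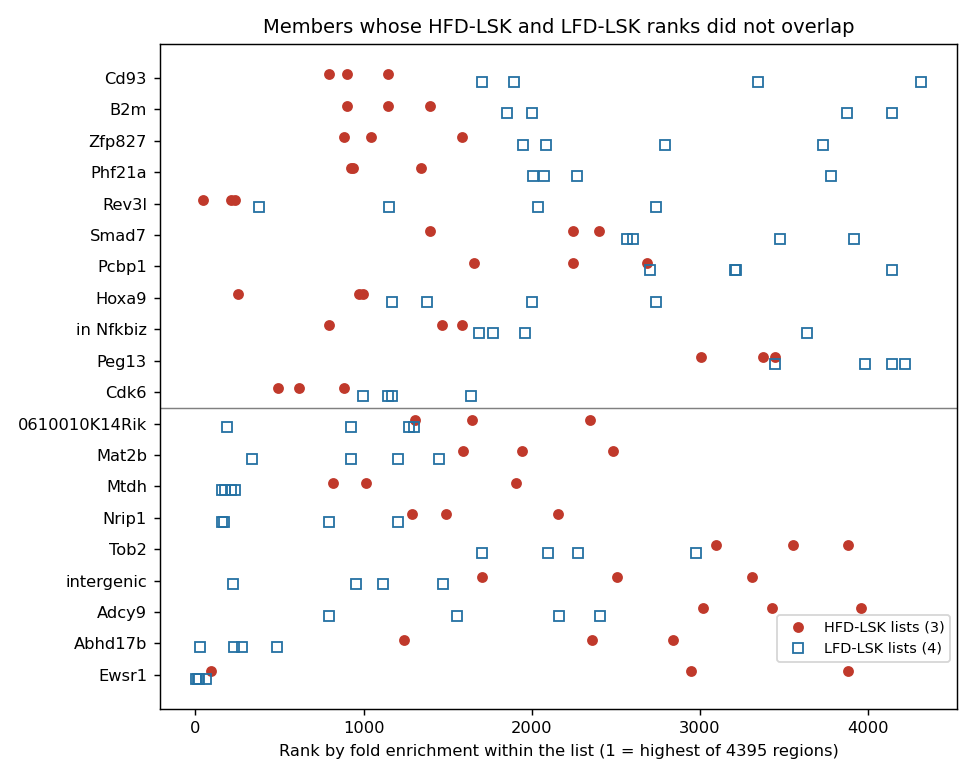
Rank by fold enrichment within the list (x axis, 1 is the highest of 4395 regions) for the 20 members whose ranks did not overlap between diets, with red circles for the 3 HFD-LSK lists and open blue squares for the 4 LFD-LSK lists. The 11 members above the grey line were nearer the top in HFD-LSK and the 9 below it were farther, with Ewsr1 at rank 91 in 1 HFD-LSK list and at 2944.5 and 3880 in the others.

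Ranks at Kit, Gata2 and Mecom overlapped between diets. Kit had ranks 821, 535.5 and 3253 in HFD-LSK and 1079, 762.5, 2009.5 and 1475 in LFD-LSK, a mean difference of 205. Gata2 had 3968.5, 959 and 886 in HFD-LSK and 2112.5, 3624.5, 1770 and 3779 in LFD-LSK, a mean difference of -884. Mecom had 103.5, 535.5 and 529.5 in HFD-LSK and 122, 84.5, 892.5 and 4200.5 in LFD-LSK, a mean difference of -935. At Mecom LFD-LSK replicate 4 alone stood far from the rest.

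Other long members had overlapping ranks as well. Tnrc18 had ranks 1109.5, 472.5 and 357.5 in HFD-LSK and 892.5, 1841.5, 1376.5 and 1032.5 in LFD-LSK (mean difference -639). Bcl11a had 838.5, 101.5 and 455 in HFD-LSK and 704, 2042.5, 761 and 486 in LFD-LSK (mean difference -533). Foxo3 had 432, 1539.5 and 519 in HFD-LSK and 358.5, 310.5, 686.5 and 334.5 in LFD-LSK (mean difference 408). The diets overlapped at each.

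Presence or absence of a call was compared as well. No member was called in all HFD-LSK lists and no LFD-LSK list, where 0.3% of all regions (44) were, and none was called in all LFD-LSK lists and no HFD-LSK list, where 0% of all regions were. HFD-LSK replicate 2 called all 500 members, so the choice of members left no room for a call in LFD-LSK alone, and nothing is read from that count. For a single region such a split has an exact Fisher p of 0.0286.

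Covered width was ranked in the same way. The width rank was nearer the top in every HFD-LSK list at 11 members, where 1.73% of all ranked regions were, and farther at 3, where 3.82% were. The members were chosen by a width that HFD-LSK replicate 2 largely set, so nothing is read from these counts. The 3, named after their values were seen, lay at Ift140, Gnb2 and Arhgap21. Peaks at Ift140 covered 2519, 3800 and 1841 bp in HFD-LSK and 2952, 2981, 3152 and 2673 bp in LFD-LSK, and HFD-LSK replicate 2 had the most bases of the 7.

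Lists did not rank the members alike. The Spearman rho of fold between lists had a median of 0.315 over the 9 pairs of the same diet and 0.373 over the 12 pairs of different diets, and for the other regions these were 0.585 and 0.576. Among members, the pairs with LFD-LSK replicate 4 had 0.113 to 0.198. The members were chosen by width, which goes with fold, so their folds span a narrower range. Nothing is read from their lower values. Pairs share libraries, so these are descriptions.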

How the data were processed

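H3K4me3 peak lists of 3 HFD-LSK and 4 LFD-LSK libraries were used, with groups taken from the sample titles. The titles name the assay CUT&RUN, whereas the study describes it as CUT&Tag, the name used here. Per the labels, the authors' processing used Trim Galore, Bowtie2, Picard, MACS2, bedtools, HOMER and featureCounts on GRCm38, with no versions given. The study's methods name another build and peak caller, and the coordinates of the lists match GRCm38 gene starts. The deposited lists give for each peak its fold enrichment as a ratio over background, its −log10 p-value (lowest 5.01) and its −log10 q-value (lowest 2.17), and a score. They give no read totals.

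Of 69549 peaks, 7 outside chromosomes 1 to 19 and X were dropped. Peaks that overlapped or touched were merged, and the 500 longest regions became members. Gene starts came from RefSeq GRCm38.p6 for 21187 of 21631 coding genes (97.9%), within 1000 bp. Where RefSeq gave no promoter, the strand was taken from GENCODE by symbol. A member was named after the coding start nearest the median summit of its strongest peaks, or as inside a gene where no start was near.

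The members and lists were chosen with earlier results of these data known. Named were the 15 longest members, members in the stem cell, surface, lymphoid, myeloid and immediate early lists (at most 8 a list), the 3 largest rank differences each way among members without overlap, 3 regions on each side of the limit, the 3 longest away from starts and those in the fewest lists. Ranks were tested with exact permutation and Benjamini-Hochberg adjustment over all ranked regions, and calls with Fisher's exact test. Steps were tested on simulated data (Python 3.11.15, pandas 2.3.3, SciPy 1.17.1).

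Summit fragments were recovered by finding, for each list, the factor by which MACS2 had scaled the treatment, so that a whole number of fragments gave both the fold and the p of each peak. IgG libraries were not analysed here.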

Additional observations from a re-analysis of the deposited data

Results flagged for a closer look

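Among 35 quantities screened in the 4 LFD-LSK lists, 3 had 1 library apart from the others by Dixon's ratio, and chance flags about 1 in 20. The share of a list's marked bases that lay in members had a ratio of 0.856. It was 11.6%, 11.4%, 11.7% and 9.62% in LFD-LSK replicates 1 to 4, with replicate 4 the low one. The bases covered at Abhd17b had a ratio of 0.945, with 2323 bp in replicate 2 and 1310, 1366 and 1322 bp in replicates 1, 3 and 4. The fold rank of Foxo3 had a ratio of 0.872, with 686.5 in replicate 3 and 358.5, 310.5 and 334.5 in replicates 1, 2 and 4.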

How the results depend on the processing

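Members at coding starts numbered 447 to 471 of 500 under every alternative that kept 500 members. Choosing 250 members gave 6 nearer and 4 farther from the top in HFD-LSK, 223 at coding starts, 185 called in all 7 lists and 250 in common with the 500 members. Choosing 1000 gave 21 nearer, 14 farther, 903 at coding starts and 676 called in all lists. These follow from the number chosen. Requiring a −log10 q of at least 5 left 221 members called in all lists, and trimming each list to the same number of its strongest peaks left 220, with 4 members nearer the top. Ranking all regions gave 14 farther. The shares over all ranked regions were not computed under these alternatives, so the counts nearer and farther have no background beside them. Width as the bases covered by at least 4 lists left 297 in common (this setting was added once the data had been seen).

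Leaving out 1 library at a time, with fewer lists to separate, gave 17 to 40 members nearer, 14 to 26 farther and 0 to 2 called in HFD-LSK alone, the extremes of all 3 highest without HFD-LSK replicate 1. The shares over all regions were not computed with a library left out, so nothing about diet is read from these counts. Members called in all remaining lists numbered 360 to 444, the most without LFD-LSK replicate 4. In common were 345 to 500, the fewest without HFD-LSK replicate 2.

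Pairing libraries by replicate number gave 60 of the 357 ranked members nearer and 38 farther in all 3 pairs. Agreement of 3 pairs is a weaker demand than no overlap between 7 lists, so these counts cannot be set beside the unpaired ones. The share of all ranked regions was not computed for the pairs, and nothing about diet is read from them. The deviations of same-numbered libraries from their group means correlated at 0.159, -0.00381 and 0.0547 over 4395 regions. Those of unlike-numbered libraries ran from -0.176 to 0.0620, below the value for replicate 1. The study's methods say that its differential analysis allowed for batch and pairing, and the labels do not give the pairs. Whether same-numbered libraries share a batch is therefore not known. In this replicate block the rank difference of Mecom was 23.2.

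Rank differences changed sign for Hoxa9 (43.0 by the fold of the longest peak, and -1588.7 to 157.6 with 1 library left out, the highest without HFD-LSK replicate 2), Bcl11a (-842.3 to 2403.2, without HFD-LSK replicate 2), Kit (-673.4, without HFD-LSK replicate 3, to 1077.4), Tnrc18 (-875.1 to 101.0, without LFD-LSK replicate 3) and Mecom (-1507.8 to 52.7, without LFD-LSK replicate 4). The cause was not tested. Those of Cd93, B2m, Zfp827, Ewsr1, Abhd17b, Adcy9, Gata2 and Foxo3 kept their sign under each alternative run, but not their size. Cd93 reached -2978.8 without LFD-LSK replicate 4. Gata2 was -1930.2, -393.0 and -362.1 without HFD-LSK replicates 1, 2 and 3, -536.8 by −log10 p and -564.5 in the replicate block. Foxo3 was 614.8 and 52.8 without HFD-LSK replicates 1 and 2, and 904.8 by the fold of the longest peak. For the other 5 named here, no alternative moved the value by over 1.5 times.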
